A study of Mus musculus with 40 samples.

Results

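The data were examined for 35 genes that encode the enzymes, transporters and control proteins of glycolysis, lactate exchange and glycogen turnover, taken as a fixed list of gene symbols from the 23621 genes of the deposited table. All 35 were matched by Entrez identifier, and all 35 passed the filter on low counts in both muscles. By role the list holds 6 genes of upper glycolysis, 7 of lower glycolysis, 4 of lactate handling, 2 of side branches, 4 of glycogen synthesis, 7 of glycogen breakdown and 5 of glycogen targeting and control. The messenger RNA came from C57BL/6 mice for which the labels give neither age nor sex. Quadriceps libraries, 3 a group, came from mice that ran on a treadmill until exhausted in a session at zeitgeber time (ZT, hours from lights on) 0 or 12, and from sedentary mice. Running mice were killed on exhaustion (+0h, labelled ZT0.5 or ZT12.5) or 3 h afterwards (+3h, labelled ZT3.5 or ZT15.5), and sedentary mice at ZT0, ZT4, ZT12 and ZT16. Gastrocnemius libraries, 4 a group, came from mice given a running wheel by day or by night and sampled at ZT4 or ZT16; no wheel-free gastrocnemius was analysed here, so muscle and exercise regime cannot be told apart. Each library's deposited name holds a number of its own, but the labels do not say that it marks an animal, so p-values measure the spread between these samples, which may be technical.

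Glycolysis splits glucose units into pyruvate, and in fast muscle most of those units come from glycogen stored in the fibre. During hard exercise phosphorylase releases glucose units from glycogen, glycolysis turns them into pyruvate, lactate dehydrogenase converts pyruvate to lactate, and monocarboxylate transporters carry lactate across the membrane. Afterwards glycogen is rebuilt from UDP-glucose, with protein phosphatase 1 brought to the particle by glycogen-targeting subunits. Several steps have a muscle isozyme and 1 or more isozymes that predominate in other tissues, among them Pfkm beside Pfkl and Pfkp, Pgam2 beside Pgam1, Eno3 beside Eno1 and Pygm beside Pygb.

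The upstream sequences of 4 genes that carry the main results are shown because each holds a match to 1 of 2 short motifs searched on both strands, CACGTG (the E-box) and ACGTG outside an E-box (the core of the hypoxia element, which reads CACGT on the other strand). Each is the stretch of 250 bases before the first start listed for the gene in RefSeq (GRCm38.p6), written 5′ to 3′ on the gene's own strand, with matches in capitals. The stretches lie at chr19:36736605-36736854 (minus strand, Ppp1r3c), chr3:104638414-104638663 (plus strand, Slc16a1), chr11:21371268-21371517 (minus strand, Ugp2) and chr19:6384158-6384407 (plus strand, Pygm).
Ppp1r3c: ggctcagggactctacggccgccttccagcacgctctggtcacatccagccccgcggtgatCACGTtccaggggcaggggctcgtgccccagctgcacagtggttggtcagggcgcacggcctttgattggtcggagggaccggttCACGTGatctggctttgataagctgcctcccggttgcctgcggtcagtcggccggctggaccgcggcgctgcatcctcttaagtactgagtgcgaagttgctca
Slc16a1: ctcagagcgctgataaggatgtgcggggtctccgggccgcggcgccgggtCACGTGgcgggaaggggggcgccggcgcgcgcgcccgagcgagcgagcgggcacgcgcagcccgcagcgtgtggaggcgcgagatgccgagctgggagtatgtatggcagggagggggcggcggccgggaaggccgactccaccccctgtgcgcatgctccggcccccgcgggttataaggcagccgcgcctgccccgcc
Ugp2: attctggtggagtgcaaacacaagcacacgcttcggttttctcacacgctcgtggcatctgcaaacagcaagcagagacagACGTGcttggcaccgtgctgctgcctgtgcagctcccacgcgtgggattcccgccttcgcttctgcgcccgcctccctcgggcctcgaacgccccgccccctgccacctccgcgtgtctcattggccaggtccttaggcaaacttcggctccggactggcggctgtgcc
Pygm: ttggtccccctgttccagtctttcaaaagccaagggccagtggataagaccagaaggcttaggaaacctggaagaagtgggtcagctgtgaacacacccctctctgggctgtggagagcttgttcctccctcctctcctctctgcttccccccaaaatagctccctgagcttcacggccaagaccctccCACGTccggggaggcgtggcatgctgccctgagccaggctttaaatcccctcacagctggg
Counting back from the start, where the base just before it is -1, the E-box began at -104 in Ppp1r3c and at -200 in Slc16a1. The hypoxia core began at -189 in Ppp1r3c, at -169 in Ugp2 and at -61 in Pygm. Of the 35 genes, 34 were found in the RefSeq promoter table, the exception being Gpd1. An E-box was found in 7 of the 34 (20.6%), namely Ppp1r3c, Ppp1r3d, Slc16a1, Ldha, Gaa, Fbp2 and Pfkm, and in 6.0% of all 27025 genes with a stretch of that length. The hypoxia core outside an E-box was found in 9 of the 34 (26.5%), against 11.4% of all. Gpi1, which rose in 3 of the 4 treadmill comparisons below, held neither set of letters in this window. These matches describe the letters only.

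The libraries held between 27353187 and 79491550 estimated counts, the lowest being treadmill +0h ZT0 replicate 3. Levels below are CPM, a gene's share of its library's counts on a fixed total, with libraries scaled to each other. Together the 35 genes made up between 53555 and 76531 CPM of every quadriceps library. Markers of fast fibres, such as the fast myosin heavy chains, summed to between 139119 and 208318 CPM in quadriceps, and markers of slow fibres to between 93.8 and 2687 CPM, so fast fibre genes dominated in every quadriceps library, as the label of a glycolytic muscle says. The summed level of slow markers differed several-fold among replicates of 1 group.

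Per kilobase of the principal transcript, the highest median level over the 24 quadriceps libraries was that of Aldoa, the muscle aldolase, at 11141 CPM per kb. It was followed by Gapdh at 6752 and Eno3 at 3648 CPM per kb. Pygm, the muscle glycogen phosphorylase that McArdle disease patients lack, came next with 2889.9 CPM per kb. The lowest were Ppp1r3d, a minor glycogen-targeting subunit, at 0.514 and Pfkp, the platelet phosphofructokinase, at 1.92 CPM per kb. The muscle isozymes exceeded their counterparts by a wide margin in both muscles. On this scale the median ratio of Pygm to Pygb over libraries was 899.8 in quadriceps and 1508 in gastrocnemius. For Pfkm to Pfkl it was 454 in quadriceps and 583 in gastrocnemius, and for Pgam2 to Pgam1 it was 199 in quadriceps and 211 in gastrocnemius. Eno3 to Eno1 stood at 79.3 in quadriceps and 84.2 in gastrocnemius. The lactate dehydrogenase subunits were closer, with Ldha over Ldhb at a median of 21.1 and a range of 6.39 to 55.5 in quadriceps, and a median of 9.57 in gastrocnemius. Slc16a3, the transporter known for lactate export from fast fibres, exceeded Slc16a1, known for uptake in oxidative cells, by a median ratio of 9.45 in quadriceps. Among the glycogen-targeting subunits, Ppp1r3a, the muscle-specific one, had 0.116 of the per-length level of Ppp1r3c, the protein targeting to glycogen, in quadriceps and 0.172 in gastrocnemius. Genes of related sequence took few counts: Aldoart1, Aldoart2, Eno1b, Gapdhs, Pgk2, Ldhc and Ldhal6b each stayed at or below 1.41 CPM in every library.

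**Figure D1:**
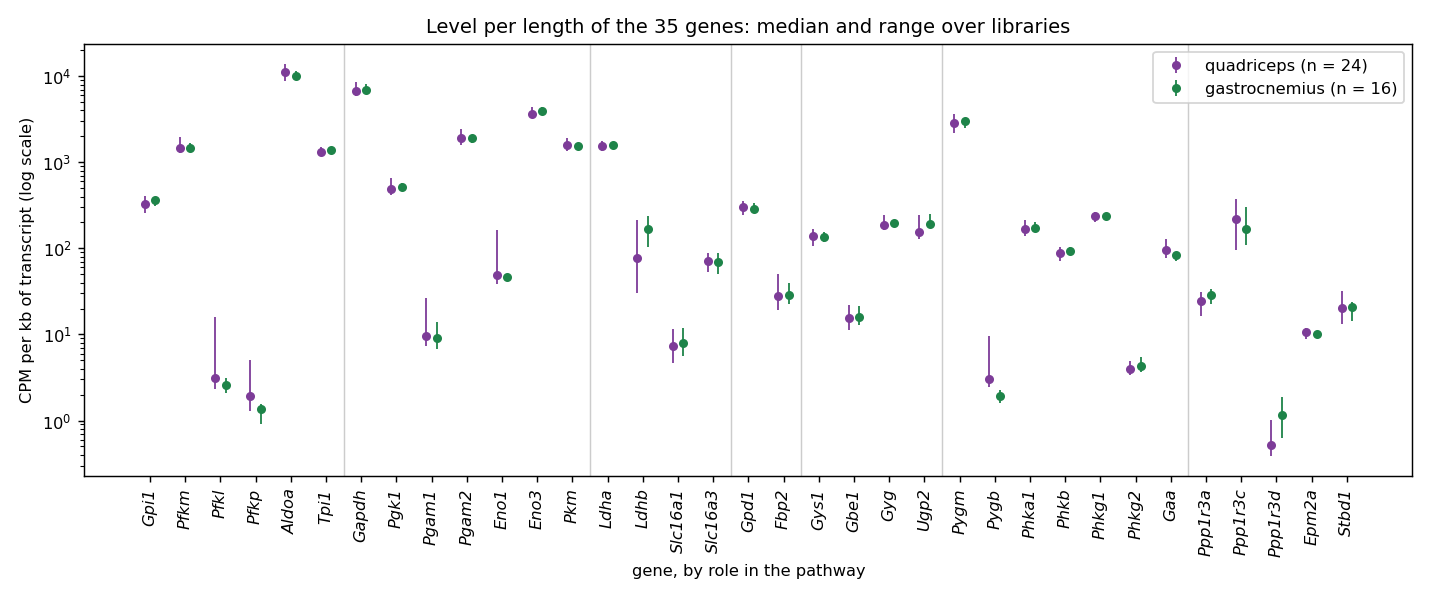
Level of each of the 35 genes in CPM per kb of its principal transcript (log axis), as the median (point) and the lowest to highest library (line) of 24 quadriceps and 16 gastrocnemius libraries. Aldoa and Gapdh stand highest, Pfkl, Pfkp, Pygb and Ppp1r3d lowest, and Ldhb spans a wide range in quadriceps.

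The first comparison set muscle taken on exhaustion in the ZT0 session against sedentary ZT0 muscle. Of the 35 genes 7 rose after the run, 3 of them among the 6 of upper glycolysis and 1 among the 7 of lower glycolysis, none fell and 28 did not pass the test (edgeR's quasi-likelihood test, adjusted p under 0.05). Over all 15097 genes tested, 6.82% passed, 4.29% rising and 2.53% falling. The median log2 change was 0.13 over the 35 genes and 0.0 over all genes. Levels of messenger RNA in whole muscle cannot tell fewer cells of a type from less RNA per cell. Gpi1, which interconverts glucose 6-phosphate and fructose 6-phosphate, had 1021, 1037 and 961 CPM in treadmill +0h ZT0 muscle, against 745, 790.0 and 828 CPM in sedentary ZT0 muscle. The groups did not overlap, and the log2 change was 0.35 ± 0.07 (SE, adjusted p = 0.0024). Pygm had 8516, 9088 and 8157 CPM in treadmill +0h ZT0 muscle, against 6312, 7292 and 6779 CPM in sedentary ZT0 muscle. Every treadmill library was above every sedentary library, with a change of 0.34 ± 0.08 (adjusted p = 0.013). Aldoa, which splits fructose 1,6-bisphosphate, had 17373, 17635 and 17145 CPM in treadmill +0h ZT0 muscle, against 13382, 14259 and 14466 CPM in sedentary ZT0 muscle. Its groups were also apart, and the change was 0.31 ± 0.08 (adjusted p = 0.025). Gpd1, the cytosolic glycerol 3-phosphate dehydrogenase, had 1019, 929 and 1027 CPM in treadmill +0h ZT0 muscle, against 701, 876 and 783 CPM in sedentary ZT0 muscle. The groups did not overlap, with a change of 0.33 ± 0.08 (adjusted p = 0.019). Ppp1r3c brings protein phosphatase 1 to glycogen, where the phosphatase favours synthesis. It had 872, 873 and 842 CPM in treadmill +0h ZT0 muscle, against 464, 552 and 521 CPM in sedentary ZT0 muscle. The 3 treadmill libraries lay close together and well above the sedentary ones, with a change of 0.75 ± 0.21 (adjusted p = 0.038). That call was lost without any 1 of the 6 libraries, at changes of 0.69 (without sedentary ZT0 replicate 1) to 0.81 (without sedentary ZT0 replicate 2). Without sedentary ZT0 replicate 1, the Pygm change was 0.29, Aldoa 0.28 and Gpd1 0.26, and none of these passed; Gpd1 also missed without sedentary ZT0 replicate 3 (0.34), treadmill +0h ZT0 replicate 1 (0.31) or replicate 3 (0.31), and Aldoa without treadmill +0h ZT0 replicate 1 (0.31). With only the 2 groups in the fit, which leaves fewer libraries to estimate the spread, only Ppp1r3c of the 7 passed, and the other 6 had adjusted p of 0.063 (Gpi1, change 0.35) to 0.293 (Eno1). Set against sedentary ZT4 instead, Pygm changed by 0.20, Aldoa by 0.17 and Eno1 by 1.00, all short of the threshold. Without the filter on low counts Ppp1r3c (0.75) and Eno1 (1.13) did not pass. Slow fibre markers averaged 314 CPM in treadmill +0h ZT0 muscle and 1061 CPM in sedentary ZT0 muscle, with overlap and none of the 10 passing. Sedentary ZT0 replicate 1 had the highest of these sums, 2179 CPM, against 266 and 738 CPM in replicates 2 and 3. The part of slow fibre content in these calls was not tested.

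The other genes that rose in this comparison were isozymes that predominate outside muscle. Eno1, the enolase of most non-muscle cells, had 163, 97.99 and 328 CPM in treadmill +0h ZT0 muscle, against 77.3, 107 and 83.7 CPM in sedentary ZT0 muscle. Pfkp had 13.4, 8.36 and 20.7 CPM in treadmill +0h ZT0 muscle, against 6.81, 8.55 and 7.11 CPM in sedentary ZT0 muscle. In both genes treadmill replicates 1 and 3 stood high while replicate 2 lay within the sedentary range, so the groups overlapped. The log2 change was 1.13 ± 0.33 for Eno1 (adjusted p = 0.045) and 0.91 ± 0.23 for Pfkp (adjusted p = 0.023). Pygb, Pfkl and Pgam1 had the same order of treadmill libraries without passing: Pfkl, the liver phosphofructokinase, had 22.5, 10.8 and 59.8 CPM in treadmill +0h ZT0 muscle, against 10.9, 14.3 and 11.2 CPM in sedentary ZT0 muscle (adjusted p = 0.083). The 10 adipocyte markers, among them adiponectin and perilipin 1, summed to 3068, 1328 and 3767 CPM in treadmill +0h ZT0 muscle, against 1397, 1983 and 1328 CPM in sedentary ZT0 muscle. None of the 10 was at 0 in every library of a group, and none passed in this comparison. The median log2 change per adipocyte marker was 1.709. The list includes Car3, and the share of each marker in a sum is not given, so a sum can rest on few markers. Treadmill replicates 1 and 3 were high in both the isozymes and the adipocyte sum. Sedentary ZT12 replicate 1, with the highest adipocyte sum at 4475 CPM, had 37.8 CPM of Pygb, the highest of all libraries, and 205 CPM of Eno1, below treadmill +0h ZT0 replicate 3. Treadmill +3h ZT12 replicate 2 had an adipocyte sum of 2828 CPM but 86.96 CPM of Eno1, and replicate 3 a sum of 3195 CPM but 14.3 CPM of Pfkl. Macrophage markers summed to 174.9, 168 and 203 CPM in treadmill +0h ZT0 muscle, against 122, 139 and 133 CPM in sedentary ZT0 muscle, without overlap and with none of the 8 passing. Satellite cell markers averaged 69.7 CPM in treadmill +0h ZT0 muscle and 42.5 CPM in sedentary ZT0 muscle, without overlap and with 1 of the 5 raised. Without treadmill +0h ZT0 replicate 3 the change of both genes was 0.55 and neither passed. Eno1 also missed without sedentary ZT0 replicate 1 (1.04), replicate 2 (1.28) or replicate 3 (1.095) and without treadmill replicate 1 (1.25), and Pfkp without sedentary ZT0 replicate 1 (0.84) or replicate 3 (0.88) and without treadmill replicate 1 (0.94). Gpd1 had the same order of treadmill libraries, at 1019, 929 and 1027 CPM, though its groups did not overlap. The part that RNA of these cell types has in the isozyme and Gpd1 results was not tested.

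**Figure D2:**
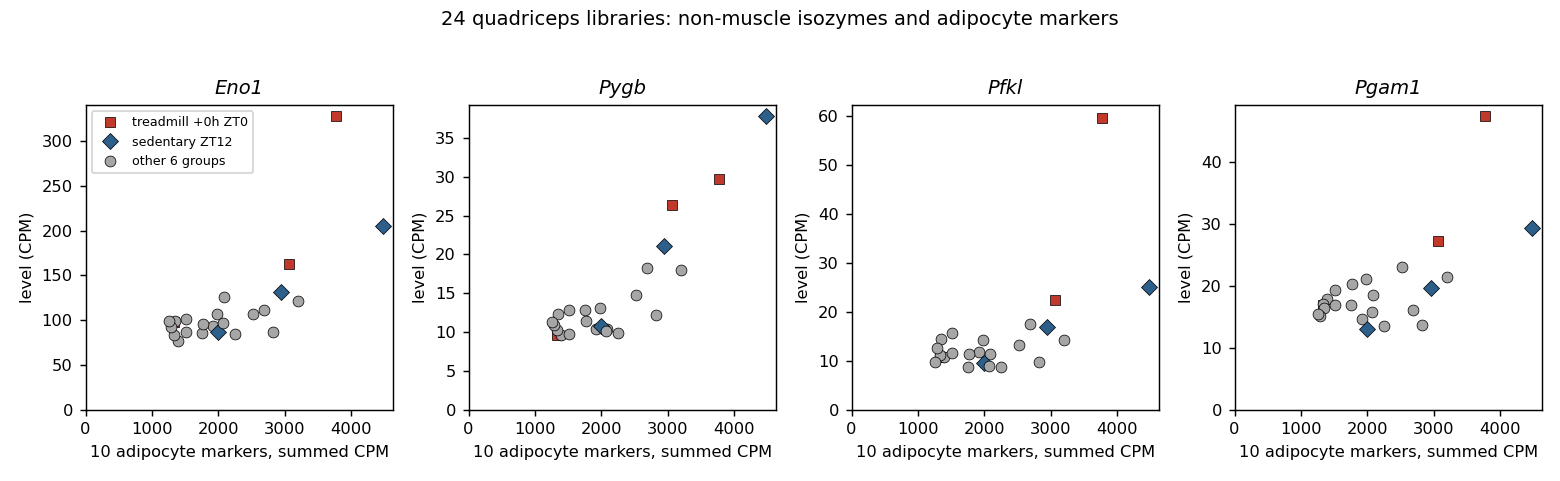
Level (CPM) of Eno1, Pygb, Pfkl and Pgam1 in each of 24 quadriceps libraries against the summed level (CPM) of 10 adipocyte markers in the same library; red squares are treadmill +0h ZT0, blue diamonds sedentary ZT12, grey circles the other 6 groups. The treadmill +0h ZT0 libraries at 3068 and 3767 CPM and the sedentary ZT12 library at 4475 CPM lie high on both axes.

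On exhaustion in the ZT12 session, 3 of the 35 rose and none fell against sedentary ZT12 muscle, where 4.6% of all genes passed, 3.19% rising and 1.41% falling. They were Ppp1r3c, Gpi1 and Pygm, which had also risen after the ZT0 session. Ppp1r3c had 1016, 834 and 628 CPM in treadmill +0h ZT12 muscle, against 272, 459.8 and 361 CPM in sedentary ZT12 muscle. The groups did not overlap, although the treadmill libraries were spread widely, with a log2 change of 1.18 ± 0.21 (adjusted p = 0.0021). Gpi1 had 1079, 1133 and 1136 CPM in treadmill +0h ZT12 muscle, against 857, 949.6 and 942 CPM in sedentary ZT12 muscle. The change was 0.28 ± 0.07 (adjusted p = 0.014), without overlap. Pygm had 9992, 10098 and 10089 CPM in treadmill +0h ZT12 muscle, against 7612, 8641 and 8454 CPM in sedentary ZT12 muscle. Its 3 treadmill libraries lay close together and above every sedentary one, and the change was 0.29 ± 0.08 (adjusted p = 0.04). The call of Pygm was lost without any 1 of the 6 libraries (0.24 without sedentary ZT12 replicate 1 to 0.33 without replicate 2), and that of Gpi1 without sedentary ZT12 replicate 1 (0.24), the library rich in adipocyte markers, or treadmill +0h ZT12 replicate 2 (0.27). With only the 2 groups in the fit none of the 3 passed (Ppp1r3c 1.18, adjusted p = 0.088; Gpi1 0.29, adjusted p = 0.119; Pygm 0.29, adjusted p = 0.126). Against sedentary ZT16 the change of Ppp1r3c was 0.61 and did not pass.

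At 3 h after the ZT0 session the genes that rose were a glycogen-targeting subunit, the UDP-glucose enzyme and a lactate transporter. Against sedentary ZT4 muscle 3 of the 35 genes rose and 1 fell, a share of 11.4% beside 13.6% of all genes (6.96% rising, 6.63% falling), so the count itself does not set the 35 genes apart. Ppp1r3c had 677, 800.4 and 889 CPM in treadmill +3h ZT0 muscle, against 263, 432 and 336 CPM in sedentary ZT4 muscle. It was again above every control, with a log2 change of 1.2 ± 0.21 (adjusted p = 0.00098). Ugp2 makes UDP-glucose, the building block of glycogen. Its level was 548, 551 and 523 CPM in treadmill +3h ZT0 muscle, against 388, 423 and 393 CPM in sedentary ZT4 muscle. The groups did not overlap, and the change was 0.43 ± 0.09 (adjusted p = 0.0027). Slc16a1, the monocarboxylate transporter MCT1, had 46.6, 35.3 and 39.3 CPM in treadmill +3h ZT0 muscle, against 29.1, 24.1 and 24.6 CPM in sedentary ZT4 muscle. All 3 treadmill libraries were higher, by 0.64 ± 0.18 (adjusted p = 0.021). Ppp1r3a had 124, 155 and 113 CPM in treadmill +3h ZT0 muscle, against 172, 155 and 182 CPM in sedentary ZT4 muscle. It was the only one of the 35 that fell in a treadmill comparison, by 0.38 ± 0.11 (adjusted p = 0.033), and the groups met at 155 CPM. The Ppp1r3a call was lost with only the 2 groups in the fit (-0.38) and without treadmill +3h ZT0 replicate 1 (-0.34) or replicate 3 (-0.28), or sedentary ZT4 replicate 1 (-0.37) or replicate 3 (-0.32), and that of Slc16a1 without treadmill +3h ZT0 replicate 1 (0.53) or sedentary ZT4 replicate 2 (0.59) or replicate 3 (0.60). Against sedentary ZT0 in place of ZT4, Ppp1r3c changed by 0.62, Ugp2 by 0.20 and Slc16a1 by 0.30, and none of the 3 passed. Adipocyte markers summed to between 1753 and 2254 CPM in treadmill +3h ZT0 muscle, against 1290 to 1516 CPM in sedentary ZT4 muscle, with 1 of the 10 raised. The median log2 change per adipocyte marker was 0.162, and their part in these rises was not tested.

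The most calls came 3 h after the ZT12 session, with glycolytic, glycogen-building and glycogen-degrading genes among them. Against sedentary ZT16 muscle 10 of the 35 genes rose (28.6%), none fell and 25 did not pass, where 17.2% of all genes passed, 8.7% rising and 8.53% falling. The median log2 change was 0.13 over the 35 genes and -0.003 over all genes. Upper glycolysis gave 3 of the 10, lower glycolysis 2, glycogen synthesis 2, glycogen breakdown 2 and the side branches 1. Gaa, the lysosomal enzyme that digests glycogen and is deficient in Pompe disease, had 409, 469 and 462 CPM in treadmill +3h ZT12 muscle, against 278, 335 and 351 CPM in sedentary ZT16 muscle. The change was 0.47 ± 0.08 (adjusted p = 0.00052), with no overlap. Pygm had 9607, 10471 and 9255 CPM in treadmill +3h ZT12 muscle, against 6903, 7374 and 7984 CPM in sedentary ZT16 muscle. Phosphorylase was thus higher by 0.40 ± 0.08 (adjusted p = 0.0015) in libraries that did not overlap. Gyg, glycogenin, which primes new glycogen particles, had 359, 368 and 413 CPM in treadmill +3h ZT12 muscle, against 284, 290.4 and 317 CPM in sedentary ZT16 muscle (change 0.35 ± 0.07, adjusted p = 0.0016). Ugp2 had 582, 593 and 653 CPM in treadmill +3h ZT12 muscle, against 421, 467 and 525 CPM in sedentary ZT16 muscle (0.37 ± 0.09, adjusted p = 0.0056). Both synthesis genes were apart from their controls in every library. Aldoa had 19320.5, 21164 and 19855 CPM in treadmill +3h ZT12 muscle, against 14328, 15642 and 16317 CPM in sedentary ZT16 muscle (0.38 ± 0.08, adjusted p = 0.0023). Gpi1 had 1090.1, 1171 and 1028 CPM in treadmill +3h ZT12 muscle, against 852, 883 and 928 CPM in sedentary ZT16 muscle (0.30 ± 0.07, adjusted p = 0.0029). Fbp2, the muscle fructose 1,6-bisphosphatase, runs the phosphofructokinase step backwards. It had 57.4, 68.4 and 46.9 CPM in treadmill +3h ZT12 muscle, against 37.5, 37.2 and 38.4 CPM in sedentary ZT16 muscle, and its change of 0.61 ± 0.14 (adjusted p = 0.0049) was the largest of the 10. These 7 genes kept their calls under every alternative run, but against sedentary ZT12 the change was 0.25 for Pygm, 0.22 for Gyg and 0.67 for Ugp2, each over 1.5 times away from its value against sedentary ZT16.

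Gapdh, a gene often used as a constant reference, had 10740.1, 12069.5 and 10360.1 CPM in treadmill +3h ZT12 muscle, against 8962, 9013 and 9666 CPM in sedentary ZT16 muscle. The groups did not overlap, with a log2 change of 0.26 ± 0.08 (adjusted p = 0.034). Pkm, pyruvate kinase, changed by 0.23 ± 0.08 (adjusted p = 0.046) and Pfkm, the muscle phosphofructokinase, by 0.25 ± 0.08 (adjusted p = 0.048). These 3 calls were the least stable. All 3 were lost without treadmill +3h ZT12 replicate 1 (Gapdh 0.28, Pkm 0.25, Pfkm 0.26) or replicate 2 (Gapdh 0.20, Pkm 0.17, Pfkm 0.19), and without sedentary ZT16 replicate 1 (Gapdh 0.24, Pkm 0.20, Pfkm 0.17) or replicate 2 (Gapdh 0.25, Pkm 0.22, Pfkm 0.27). With only the 2 groups in the fit none of the 3 passed (Gapdh 0.26, Pkm 0.23, Pfkm 0.24). Pfkm was also lost without treadmill +3h ZT12 replicate 3 (0.29), and Pkm against sedentary ZT12 (0.21).

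**Figure D3:**
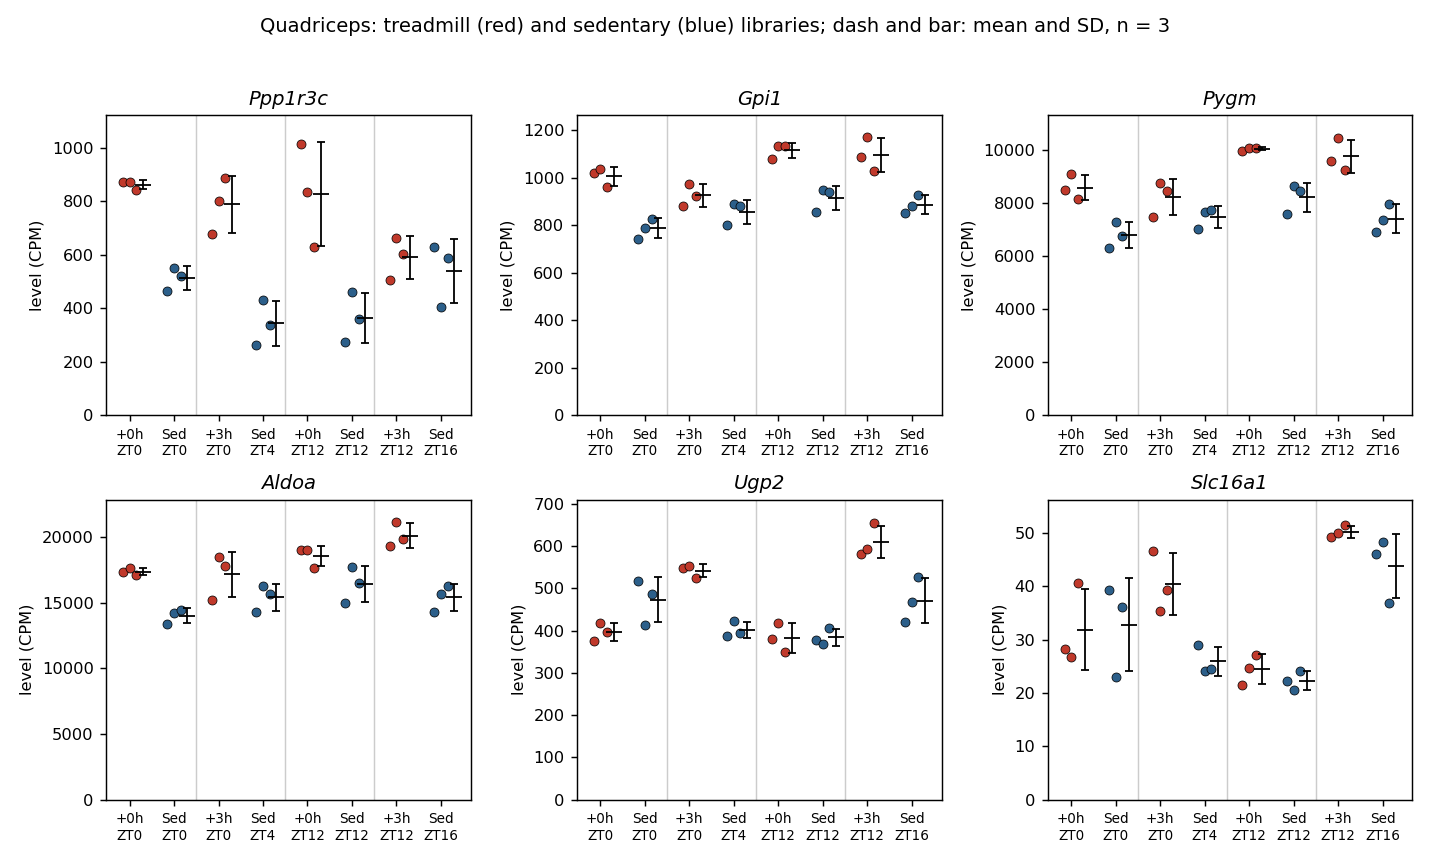
Level (CPM) of 6 genes in each quadriceps library (points) with the mean and SD of 3 libraries (dash and bar); each treadmill group (red) stands left of its sedentary control (blue). Ppp1r3c lies above its control in both +0h groups and at +3h of the ZT0 session, and Gpi1 and Pygm lie above their controls in both +0h groups and at +3h of the ZT12 session.

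**Figure D4:**
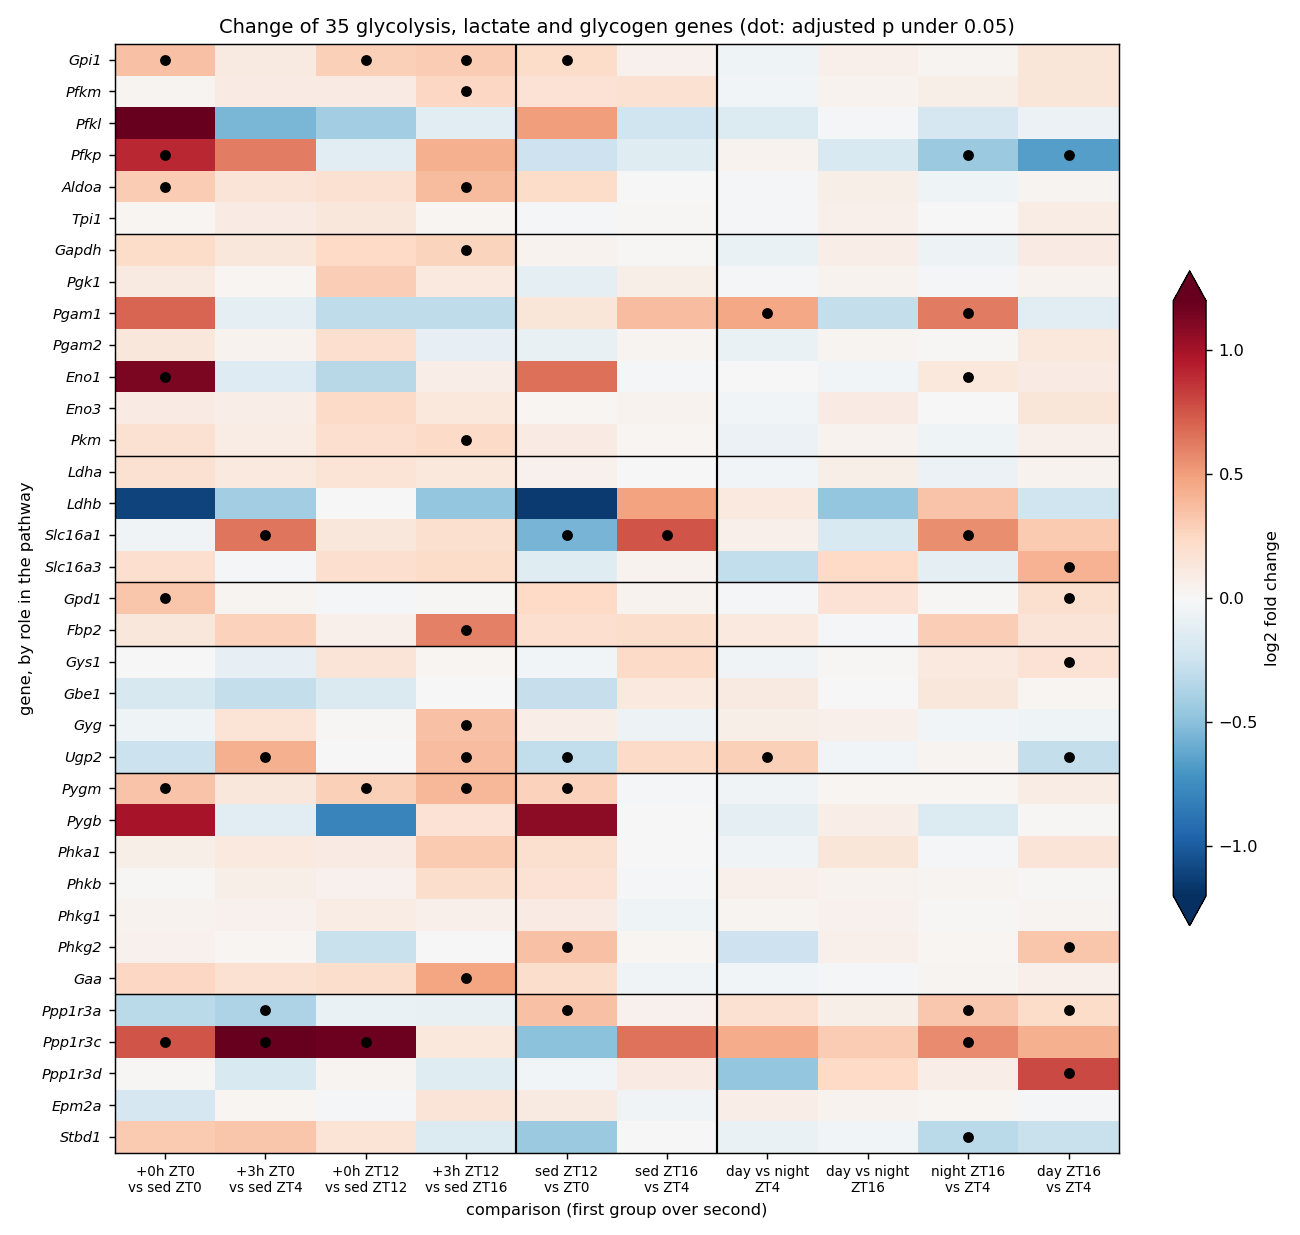
Log2 fold change (colour, blue lower and red higher in the group named first) of the 35 genes, ordered by role, in 10 comparisons; black dots mark adjusted p under 0.05. Of the dots in the 4 treadmill columns 23 are rises and 1 is a fall, and Ppp1r3c is dotted in 3 of the 4.

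Over the 4 treadmill comparisons 16 of the 35 genes passed at least once and 19 in none. Of all genes 6.82% passed at +0h ZT0, 4.6% at +0h ZT12, 13.6% at +3h ZT0 and 17.2% at +3h ZT12. How many of all genes passed at least once was not counted, so the 16 cannot be judged against that share. Gpi1, Pygm and Ppp1r3c passed in 3, Aldoa and Ugp2 in 2 and 11 genes in 1. Of the 24 calls, 23 were rises. Over all genes 4.29%, 3.19%, 6.96% and 8.7% rose and 2.53%, 1.41%, 6.63% and 8.53% fell, in the same order. Tpi1, Pgk1, Pgam2, Eno3 and Ldha, of the core pathway, passed in none. Neither did the synthase Gys1, the branching enzyme gene Gbe1, nor any of the 4 phosphorylase kinase subunits Phka1, Phkb, Phkg1 and Phkg2, the enzyme that switches phosphorylase on. Ldha changed by between 0.12 ± 0.08 (+3h ZT0) and 0.19 ± 0.08 (+0h ZT0) without passing, and Gys1 by between -0.10 ± 0.09 (+3h ZT0) and 0.15 ± 0.09 (+0h ZT12).

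The summed level of the 35 genes and that of fast fibre markers had a higher mean in each treadmill group than in its control. The 35 genes summed to 65775, 68270 and 61740 CPM in treadmill +0h ZT0 muscle, against 53555, 57003 and 58015 CPM in sedentary ZT0 muscle. In treadmill +3h ZT12 muscle it was 71115, 76531 and 68560 CPM, against 56885, 59395 and 63609 CPM in sedentary ZT16 muscle. Neither pair overlapped, nor did the sums at +0h ZT12, whereas at +3h ZT0 they ran from 58005 to 68938 CPM in treadmill muscle, against 54789 to 60575 CPM in sedentary ZT4 muscle. With 3 libraries a group an exact permutation test cannot go below 0.1. The mean ratio of treadmill to control was 1.16 at +0h ZT0, 1.15 at +0h ZT12, 1.09 at +3h ZT0 and 1.2 at +3h ZT12. The 11 fast fibre markers, summed in the same way, had ratios of 1.16, 1.17, 1.09 and 1.21 in the same 4 comparisons, and their sums overlapped between groups at +0h ZT0 and +3h ZT0. Of these 11 markers, 3 rose at +3h ZT12, 1 at +0h ZT0 and none in the other two. The fast marker sum ran from 177807 to 195587 CPM in treadmill +3h ZT12 muscle, against 145960 to 166095 CPM in sedentary ZT16 muscle, and from 154574 to 193345 CPM in treadmill +0h ZT0 muscle, against 139119 to 155822 CPM in sedentary ZT0 muscle. None of the 11 was at 0 in every library of a group. The 5 satellite cell markers had mean ratios of 1.64 at +0h ZT0, 1.84 at +0h ZT12, 1.84 at +3h ZT0 and 1.8 at +3h ZT12, without overlap in any of the 4. Of the 5, 1 was raised in each +0h comparison, 1 raised and 1 lowered at +3h ZT0, and 2 raised and 1 lowered at +3h ZT12. The median log2 change per satellite cell marker was 0.23, 0.18, 0.40 and 0.33 in the same order. The part that the makeup of the sampled muscle has in the rises of the highly expressed glycolytic genes was not tested. Ldhb, the heart-type subunit, varied widely among replicates: it had 278, 93.5 and 182 CPM in sedentary ZT0 muscle, where the 10 slow fibre markers summed to 2179, 266 and 738 CPM, in the same order. In sedentary ZT12 muscle it had 69.5, 92.8 and 87.2 CPM beside slow marker sums of 505, 152 and 118 CPM, where the library highest in slow markers was lowest in Ldhb.

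Beside the 35 genes, 55 other genes of the pathway were examined, of which 54 were tested (Ppp1r3g was filtered). At +0h ZT0, 2 of the 54 fell and none rose: Pdp1, a phosphatase that activates pyruvate dehydrogenase, changed by -0.36 ± 0.09 (adjusted p = 0.02) and Ppp1cb, a catalytic subunit of protein phosphatase 1, by -0.25 ± 0.07 (adjusted p = 0.044). The share called at +0h ZT0 was 3.7%, beside 6.82% of all genes. At +0h ZT12 none of the 54 passed (edgeR), beside 4.6% of all genes. Unadjusted p was under 0.05 there for 4 of the 54, beside 16.9% of all genes. At +3h ZT0, 3 rose and 2 fell (9.3%, beside 13.6% of all genes). At +3h ZT12, 9 rose and 2 fell (20.4%, beside 17.2% of all genes). Hk2, the hexokinase that traps glucose taken up from blood, changed by 1.72 ± 0.13 at +3h ZT0 (adjusted p = 3.4e-08) and by 1.42 ± 0.13 at +3h ZT12 (adjusted p = 1.95e-07). Pdk4, the kinase that shuts pyruvate dehydrogenase, changed by 1.34 ± 0.29 at +3h ZT0 (adjusted p = 0.00445) and by 3.77 ± 0.31 at +3h ZT12 (adjusted p = 2.8e-07). These rises, at the entry and the exit of the pathway, were larger on the log2 scale than any of the 10 rises among the 35 genes at +3h ZT12.

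Whether the time of the session changed the response was tested as a difference of differences. At +0h none of the 35 genes passed, and none of all 15097 did (edgeR). Unadjusted p was under 0.05 for 8 of the 35, beside 12.7% of all genes, and 0 of the 35 passed with DESeq2. Among those 8 were Eno1 and Pygb, with differences of -1.47 ± 0.46 and -1.78 ± 0.58 (ZT12 minus ZT0 session, adjusted p = 0.258 for each), which draw on the libraries rich in adipocyte markers. Without treadmill +0h ZT0 replicate 2, 4 of the 35 passed. At +3h none of the 35 passed (unadjusted p was under 0.05 for 3, and 1 passed with DESeq2), beside 1.59% of all genes (0.649% rising, 0.941% falling). Ppp1r3c came closest with a difference of -1.07 ± 0.30 (adjusted p = 0.0821): its level was 505, 664 and 604 CPM in treadmill +3h ZT12 muscle, against 629, 405 and 588 CPM in sedentary ZT16 muscle, groups that overlapped. Without sedentary ZT16 replicate 2, 1 of the 35 passed. How many of all genes passed in these alternative fits is not given here. The calls made after 1 session alone are therefore not shown to differ between sessions.

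The 4 sedentary groups gave the resting time course. Only 3 of the 35 genes differed among the times (8.57% of the genes, beside 17.1% of all genes): Slc16a1, Ugp2 and Phkg2. Slc16a1 had 39.4, 23.03 and 36.1 CPM at ZT0, 29.1, 24.1 and 24.6 CPM at ZT4, 22.3, 20.5 and 24.1 CPM at ZT12, and 46.1, 48.4 and 36.9 CPM at ZT16. It was lowest at ZT12 and highest at ZT16, 4 h later, with a range of group levels of 0.98 on the log2 scale (adjusted p = 0.0031). The spread at ZT0 overlapped that of each other time, while every ZT16 library exceeded every ZT4 and ZT12 library. Slow fibre markers averaged 1061 CPM at ZT0, 664 CPM at ZT4, 258 CPM at ZT12 and 1253 CPM at ZT16, in the order of Slc16a1. At ZT0 their sums were 2179, 266 and 738 CPM, lowest in the library lowest in Slc16a1. At ZT16 they were 2687, 857 and 214 CPM, where the highest library was not highest in Slc16a1. Their part in the Slc16a1 call was not tested. Ugp2, the UDP-glucose enzyme, averaged 473 ± 53.3 CPM at ZT0, 402 ± 19.2 CPM at ZT4, 384 ± 19.98 CPM at ZT12 and 471 ± 52.5 CPM at ZT16 (SD, n = 3 each), a range of 0.30 (adjusted p = 0.0298 over the 4 times). Phkg2, a phosphorylase kinase subunit better known from liver, averaged 6.75 ± 0.622 CPM at ZT0, 7.21 ± 0.353 CPM at ZT4, 8.61 ± 0.485 CPM at ZT12 and 7.35 ± 0.197 CPM at ZT16 (adjusted p = 0.03). The Slc16a1 call held in every alternative run, whereas that of Ugp2 was lost in 7 and that of Phkg2 in 4 of the 12 fits that left out 1 sedentary library, at ranges of 0.27 to 0.30 for Ugp2 and 0.29 to 0.35 for Phkg2. The 5 genes whose log2 CPM ran most like that of Slc16a1 over the 24 quadriceps libraries were Lrrc52, Eng, Ston1, Pkn3 and Srarp, with Pearson's r of 0.887, 0.878, 0.863, 0.86 and 0.859; these libraries share the treadmill and time groups.

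In sedentary ZT12 muscle against ZT0 muscle, 4 of the 35 rose and 2 fell (17.1%, beside 16.1% of all genes, 7.58% rising and 8.56% falling). These libraries are also the controls of the +0h comparisons, so the 2 sets of values are not independent. Pygm had 7612, 8641 and 8454 CPM in sedentary ZT12 muscle, against 6312, 7292 and 6779 CPM in sedentary ZT0 muscle (0.28 ± 0.08, adjusted p = 0.022). Gpi1 had 857, 949.6 and 942 CPM in sedentary ZT12 muscle, against 745, 790.0 and 828 CPM in sedentary ZT0 muscle (0.22 ± 0.07, adjusted p = 0.03). Neither gene's groups overlapped. Ppp1r3a had 208, 219 and 213 CPM in sedentary ZT12 muscle, against 184, 169 and 149 CPM in sedentary ZT0 muscle (0.35 ± 0.11, adjusted p = 0.041). Phkg2 had 8.97, 8.79 and 8.06 CPM in sedentary ZT12 muscle, against 7.39, 6.14 and 6.72 CPM in sedentary ZT0 muscle (0.35 ± 0.09, adjusted p = 0.0087). Both of these control genes were higher in every ZT12 library. Fast fibre markers summed to between 162775 and 183733 CPM in sedentary ZT12 muscle, against 139119 to 155822 CPM in sedentary ZT0 muscle, with 3 of the 11 raised. Slow fibre markers summed to 505, 152 and 118 CPM in sedentary ZT12 muscle, against 2179, 266 and 738 CPM in sedentary ZT0 muscle. The slow sums overlapped, and 1 of the 10 was lowered. Sedentary ZT0 replicate 1 had the highest slow sum of these libraries and the lowest fast sum in quadriceps, 139119 CPM. Ugp2 had 377, 369 and 407 CPM in sedentary ZT12 muscle, against 518, 414 and 486 CPM in sedentary ZT0 muscle (-0.30 ± 0.09, adjusted p = 0.027). Slc16a1 changed by -0.56 ± 0.18 (adjusted p = 0.039), its groups overlapping through sedentary ZT0 replicate 2 at 23.03 CPM. Calls were lost without sedentary ZT0 replicate 1 for Gpi1 (0.18), Pygm (0.23), Ugp2 (-0.23) and Slc16a1 (-0.40), without its replicate 2 for Gpi1 (0.22) and Ppp1r3a (0.36), and without its replicate 3 for Pygm (0.28), Ugp2 (-0.28), Slc16a1 (-0.48) and Ppp1r3a (0.28). Without sedentary ZT12 replicate 1 they were lost for Ugp2 (-0.29), Slc16a1 (-0.56) and Ppp1r3a (0.37), without replicate 2 for Gpi1 (0.19), Pygm (0.24), Ugp2 (-0.27), Slc16a1 (-0.50) and Ppp1r3a (0.33), and without replicate 3 for Gpi1 (0.20), Pygm (0.26), Slc16a1 (-0.61) and Ppp1r3a (0.35). Adipocyte markers summed to between 1989 and 4475 CPM in sedentary ZT12 muscle, against 1328 to 1983 CPM in sedentary ZT0 muscle, with 2 of the 10 raised. The median log2 change per adipocyte marker was 1.909. Endothelial markers summed to 272, 231 and 308 CPM in sedentary ZT12 muscle, against 393, 341 and 401 CPM in sedentary ZT0 muscle, without overlap and with 7 of the 9 lowered. The part of these lists in the calls was not tested. With only the 2 groups in the fit, Ppp1r3a alone of the 6 genes passed. Between sedentary ZT16 and ZT4 muscle 1 of the 35 passed, beside 7.16% of all genes (3.49% rising, 3.67% falling): Slc16a1 was higher at ZT16 by 0.76 ± 0.18 (adjusted p = 0.013), a call lost without sedentary ZT4 replicate 2 (0.71) or replicate 3 (0.72) or sedentary ZT16 replicate 2 (0.68). Endothelial markers summed to between 313 and 328 CPM in sedentary ZT16 muscle, against 351 to 396 CPM in sedentary ZT4 muscle, with 2 of the 9 lowered.

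In gastrocnemius the question was whether running by day in place of night changed the muscle. At ZT4, 2 of the 35 genes rose in day wheel muscle against night wheel muscle and none fell, beside 13.1% of all 14523 genes (6.36% rising, 6.78% falling). Ugp2 had 548, 559, 638 and 669 CPM in day wheel ZT4 muscle, against 457, 489, 489 and 548 CPM in night wheel ZT4 muscle. The highest night library reached the lowest day library without passing it, and the log2 change was 0.28 ± 0.07 (adjusted p = 0.0098). Pgam1, the phosphoglycerate mutase of non-muscle tissues, had 16.5, 18.2, 19.2 and 15.8 CPM in day wheel ZT4 muscle, against 12.03, 13.5, 12.53 and 12.4 CPM in night wheel ZT4 muscle. It was higher in every day library, by 0.47 ± 0.11 (adjusted p = 0.013), while Pgam2 changed by -0.08 ± 0.05. Ppp1r3c had 449.9, 381, 496 and 472 CPM in day wheel ZT4 muscle, against 316, 344, 358 and 299 CPM in night wheel ZT4 muscle, groups that did not overlap but did not pass (0.45 ± 0.17, adjusted p = 0.0962). At ZT16 none of the 35 passed between day and night wheel muscle (edgeR), beside 0.565% of all genes (0.275% rising, 0.289% falling). Unadjusted p was under 0.05 for 4 of the 35, beside 13.4% of all genes, and 1 passed with DESeq2. Endothelial markers summed to between 273 and 307 CPM in day wheel ZT4 muscle, against 348 to 372 CPM in night wheel ZT4 muscle, with 6 of the 9 lowered. Macrophage markers averaged 99.95 CPM in day wheel ZT4 muscle and 122 CPM in night wheel ZT4 muscle, with 1 of the 8 lowered. Satellite cell markers averaged 43.8 CPM in day wheel ZT4 muscle and 32.2 CPM in night wheel ZT4 muscle, without overlap and with 1 of the 5 raised. The part of these lists in the ZT4 calls was not tested.

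Between ZT16 and ZT4 the wheel groups were compared within each schedule. In night wheel muscle 5 of the 35 rose and 2 fell (20%, beside 18.8% of all genes, 9.41% rising and 9.38% falling). In day wheel muscle 6 rose and 2 fell (22.9%, beside 14.9% of all genes, 7.7% rising and 7.17% falling). Pfkp and Ppp1r3a passed under both schedules, in the same direction. Pfkp had 3.81, 4.05, 4.27 and 4.19 CPM in day wheel ZT16 muscle, against 6.47, 6.52, 6.42 and 6.47 CPM in day wheel ZT4 muscle. The 4 libraries of each group were nearly level and far apart, with a log2 change of -0.66 ± 0.09 (adjusted p = 4.1e-05). In night wheel muscle Pfkp had 4.01, 5.35, 5.08 and 4.14 CPM at ZT16, against 6.44, 6.32, 6.00 and 6.41 CPM at ZT4 (-0.44 ± 0.09, adjusted p = 0.0012). Pfkp thus fell at ZT16 while Pfkm did not pass under either schedule. Ppp1r3a had 215, 210.2, 237 and 225 CPM in day wheel ZT16 muscle, against 191, 184, 204 and 184 CPM in day wheel ZT4 muscle (0.22 ± 0.06, adjusted p = 0.023). Under the night schedule it had 231, 187, 208 and 217 CPM at ZT16, against 185, 156, 164 and 168 CPM at ZT4 (0.32 ± 0.06, adjusted p = 0.001).

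The remaining calls of the night schedule were rises of Pgam1, Slc16a1, Ppp1r3c and Eno1 and a fall of Stbd1, a protein that tethers glycogen to membranes. Pgam1 had 16.2, 24.5, 20.8 and 16.04 CPM in night wheel ZT16 muscle, against 12.03, 13.5, 12.53 and 12.4 CPM in night wheel ZT4 muscle (0.62 ± 0.11, adjusted p = 0.0011). Slc16a1 had 45.7, 52.4, 37.9 and 36.8 CPM in night wheel ZT16 muscle, against 24.8, 25.6, 29.96 and 36.7 CPM in night wheel ZT4 muscle (0.56 ± 0.13, adjusted p = 0.01). The Slc16a1 groups just failed to overlap, and the transporter was again higher at ZT16 than at ZT4, as in sedentary quadriceps. Ppp1r3c had 463, 508, 565 and 415 CPM in night wheel ZT16 muscle, against 316, 344, 358 and 299 CPM in night wheel ZT4 muscle (0.57 ± 0.17, adjusted p = 0.032). Stbd1 had 32.3, 41.997, 40.04 and 28.3 CPM in night wheel ZT16 muscle, against 42.6, 47.7, 46.2 and 41.8 CPM in night wheel ZT4 muscle, groups that met near 42 CPM (-0.32 ± 0.10, adjusted p = 0.029). Eno1 had 103, 102, 94.7 and 94.2 CPM in night wheel ZT16 muscle, against 92.0, 91.8, 89.6 and 87.8 CPM in night wheel ZT4 muscle (0.13 ± 0.04, adjusted p = 0.045), the smallest called change under this schedule. The Ppp1r3c call was lost without night wheel ZT4 replicate 1 (0.55), 2 (0.59) or 4 (0.52) and without night wheel ZT16 replicate 1 (0.59), 2 (0.55) or 3 (0.49). That of Stbd1 was lost without night wheel ZT4 replicate 2 (-0.29) or 3 (-0.30) and night wheel ZT16 replicate 1 (-0.28) or 4 (-0.23), and that of Eno1 without any 1 of 6 libraries, namely all 4 at ZT4 and replicates 1 and 2 at ZT16 (0.10 to 0.14). Adipocyte markers summed to between 2052 and 2898 CPM in night wheel ZT16 muscle, against 1468 to 1944 CPM in night wheel ZT4 muscle, with 2 of the 10 raised. Replicate 2 at ZT16 was highest in that sum and in Pgam1 and Slc16a1. The median log2 change per adipocyte marker was 0.165. Fibroblast and matrix markers summed to between 714 and 925 CPM in night wheel ZT16 muscle, against 972 to 1307 CPM in night wheel ZT4 muscle, with 3 of the 8 lowered. Endothelial markers summed to between 263 and 331 CPM in night wheel ZT16 muscle, against 348 to 372 CPM in night wheel ZT4 muscle, with 5 of the 9 lowered. Macrophage markers summed to between 93.02 and 107 CPM in night wheel ZT16 muscle, against 114 to 139 CPM in night wheel ZT4 muscle, with 3 of the 8 lowered. Slow fibre markers averaged 1596 CPM in night wheel ZT16 muscle and 1088 CPM in night wheel ZT4 muscle, with overlap and none of the 10 passing. At ZT16 replicate 2 was highest in slow markers (1947 CPM) and in Slc16a1. At ZT4 replicate 3 was highest in slow markers (1504 CPM) and replicate 4 in Slc16a1. In sedentary quadriceps slow markers averaged 1253 CPM at ZT16 and 664 CPM at ZT4, also with overlap. The part of these lists in the calls was not tested. With only the 2 groups in the fit the calls of Slc16a1 (0.56), Stbd1 (-0.33) and Eno1 (0.12) were lost.

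Under the day schedule the further calls were rises of Gpd1, Slc16a3, Phkg2, Ppp1r3d and Gys1 and a fall of Ugp2. Ugp2 had 470.1, 519, 484 and 511 CPM in day wheel ZT16 muscle, against 548, 559, 638 and 669 CPM in day wheel ZT4 muscle (-0.28 ± 0.07, adjusted p = 0.0075). Gpd1 had 950.2, 907, 886 and 933 CPM in day wheel ZT16 muscle, against 864, 798, 738 and 809 CPM in day wheel ZT4 muscle (0.20 ± 0.05, adjusted p = 0.008). Neither gene's groups overlapped. Slc16a3, the lactate exporter MCT4, had 375, 328, 299 and 357 CPM in day wheel ZT16 muscle, against 273, 265, 219 and 259 CPM in day wheel ZT4 muscle (0.42 ± 0.10, adjusted p = 0.014). Phkg2 had 8.76, 8.01, 9.94 and 7.98 CPM in day wheel ZT16 muscle, against 6.68, 6.81, 7.30 and 6.65 CPM in day wheel ZT4 muscle (0.34 ± 0.10, adjusted p = 0.021). Both genes stood higher in every ZT16 library. Gys1, the muscle glycogen synthase, had 546, 516, 509.5 and 514 CPM in day wheel ZT16 muscle, against 438, 468, 466 and 476 CPM in day wheel ZT4 muscle (0.17 ± 0.06, adjusted p = 0.046). Ppp1r3d had 6.11, 5.08, 3.84 and 3.74 CPM in day wheel ZT16 muscle, against 3.89, 2.48, 2.05 and 2.36 CPM in day wheel ZT4 muscle, overlapping groups at a low level (0.79 ± 0.22, adjusted p = 0.025). The Gys1 call was lost without any 1 of the 8 libraries (0.15 to 0.19) and that of Ppp1r3d without day wheel ZT4 replicate 2 (0.75), 3 (0.68) or 4 (0.73) or ZT16 replicate 1 (0.64) or 2 (0.75). Calls were also lost for Phkg2 without ZT4 replicate 1 (0.32) or 4 (0.32) or ZT16 replicate 3 (0.26), for Ppp1r3a without ZT4 replicate 2 (0.20) or 4 (0.20) or ZT16 replicate 3 (0.18), and for Slc16a3 without ZT16 replicate 1 (0.37). Satellite cell markers averaged 31.7 CPM in day wheel ZT16 muscle and 43.8 CPM in day wheel ZT4 muscle, without overlap. Of these 5 markers 1 was raised and 1 lowered, and their part in the calls was not tested.

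**Figure D5:**
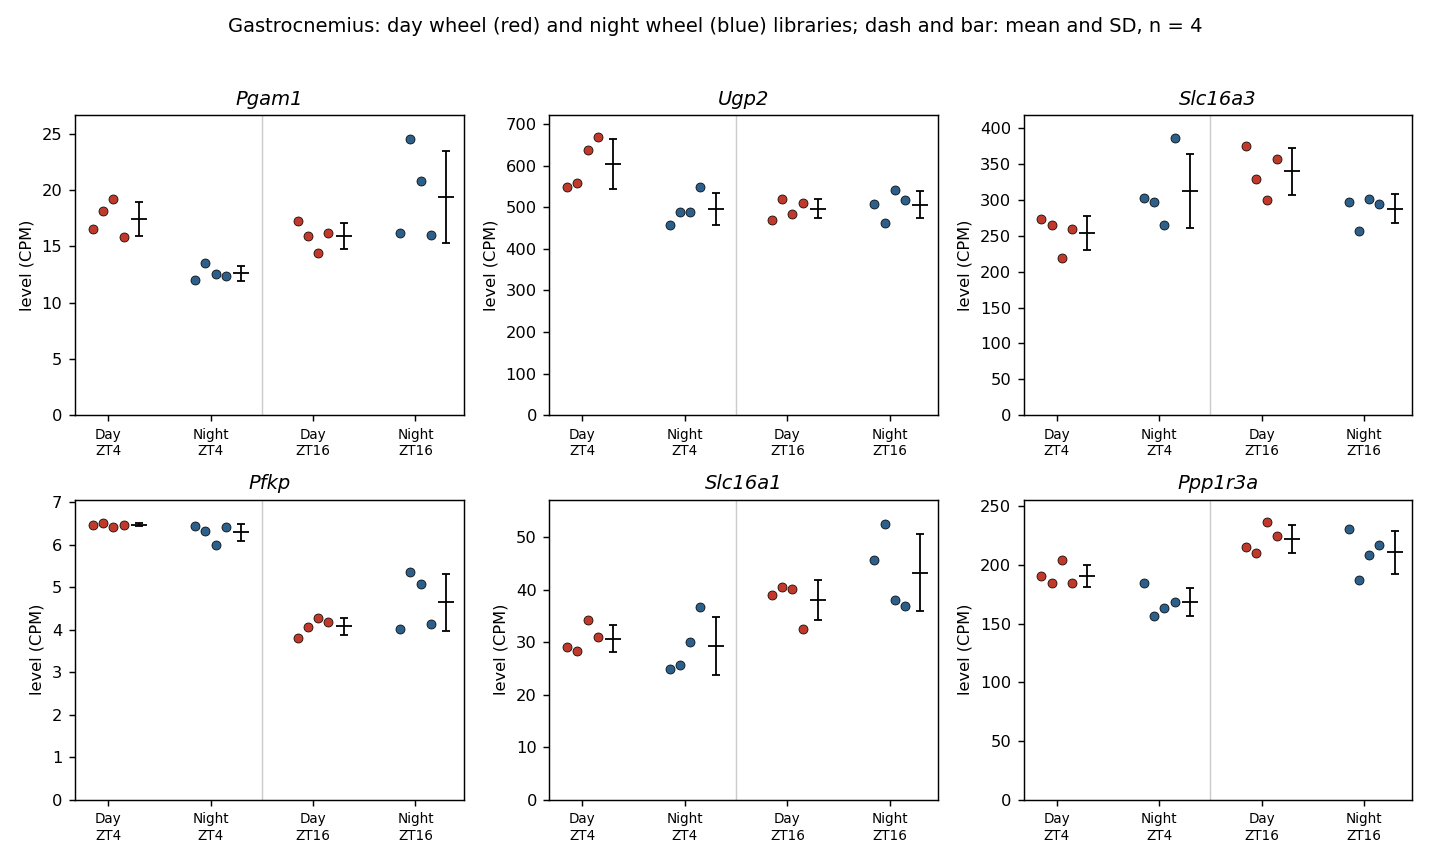
Level (CPM) of 6 genes in each gastrocnemius library (points) with the mean and SD of 4 libraries (dash and bar); day wheel groups (red) stand left of night wheel groups (blue) at ZT4 and at ZT16. Pfkp is lower and Ppp1r3a higher at ZT16 under both schedules, while Pgam1 and Ugp2 differ between schedules at ZT4.

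The time effect (ZT16 minus ZT4) itself differed between schedules for 3 of the 35 genes, beside 9.74% of all genes (4.68% rising, 5.07% falling). For Pgam1 the day effect minus the night effect was -0.75 ± 0.16 (adjusted p = 0.0072), where its level was 17.2, 15.9, 14.4 and 16.2 CPM in day wheel ZT16 muscle, against 16.5, 18.2, 19.2 and 15.8 CPM in day wheel ZT4 muscle. For Slc16a3 the difference was 0.54 ± 0.15 (adjusted p = 0.032): its night wheel level was 298, 257, 301 and 295 CPM at ZT16, against 302, 297, 266 and 386 CPM at ZT4. For Ugp2 it was -0.31 ± 0.09 (adjusted p = 0.043), with a night wheel level of 506, 463, 540.5 and 516 CPM at ZT16, against 457, 489, 489 and 548 CPM at ZT4. Between the times Pgam1 passed under the night schedule and Slc16a3 and Ugp2 under the day schedule, while the other schedule's groups overlapped in each of the 3 genes. The call of Ugp2 was lost in 11 of the 16 fits that left out 1 library (-0.33 to -0.26), and that of Slc16a3 without day wheel ZT4 replicate 3 (0.47) or 4 (0.55), night wheel ZT16 replicate 2 (0.49) or day wheel ZT16 replicate 1 (0.49) or 4 (0.52). Among the 54 other pathway genes, 5 rose and 2 fell between day and night wheels at ZT4, beside 13.1% of all genes. The share of the 54 was close to that of all genes, so the count itself does not set them apart. The called genes were led by Pfkfb2 (0.87 ± 0.12, adjusted p = 0.0005), a maker of the phosphofructokinase activator fructose 2,6-bisphosphate. At ZT16 none of the 54 passed (edgeR), beside 0.565% of all genes. Unadjusted p was under 0.05 there for 10 of the 54, beside 13.4% of all genes. For Pfkfb2 the time effect differed between schedules by -1.08 ± 0.18 (adjusted p = 0.0013) and for Hk2 by -0.74 ± 0.13 (adjusted p = 0.0024).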

How the data were processed

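Skeletal muscle messenger RNA was sequenced from stranded, polyA-selected libraries, per the labels' protocols. The authors deposited estimated counts per gene for each of 2 lanes of 40 libraries. The tools named are kallisto 0.46.2, bcl2fastq 2.20.0.422 and DESeq2 1.26.0, with build GRCm38.p6, per the submitters' processing notes. kallisto divides reads that match several transcripts by a model, so values of near-identical genes depend on it. How transcripts were summed to genes is not stated in the labels. Of 23621 Entrez identifiers, 23614 matched a RefSeq symbol.

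Lanes were summed and rounded. Totals ran from 27353187 to 79491550, and no pair of replicates agreed within sampling noise (chi-square per degree of freedom at least 6.18). Levels are CPM on TMM-scaled library sizes. Each muscle was fitted with edgeR 4.0.16's quasi-likelihood test (limma 3.58.1, R 4.3.3; robust, TMM, minimum count 10), 1 coefficient per group, with Benjamini-Hochberg adjustment over all tested genes (15097 in quadriceps, 14523 in gastrocnemius) and a threshold of 0.05. The fits were first tested on simulated data. Lengths are those of the principal GENCODE transcript (GRCm38), and promoter motifs were searched in 1 stretch a gene. Alternatives were RLE scaling, no filter, DESeq2 1.42.0, a replicate block, only the groups compared, leaving out each library, and the other sedentary control; a fit without the libraries highest in adipocyte markers was added after seeing the data.

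The 35 genes, the 55 other pathway genes and the marker lists were chosen with earlier results of these data known. Values in every library are given for up to 8 called genes with the smallest adjusted p in a comparison, and up to 4 called pathway genes are named. Uncalled genes given as values were chosen after their values were seen.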

Additional observations from a re-analysis of the deposited data

Results flagged for a closer look

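In gastrocnemius, where groups have 4 libraries, the 35 genes gave 140 groups, and in 11 of them the highest or lowest library stood apart from the other 3 beyond Dixon's criterion at 95%. Chance flags about 1 in 20 groups. Night wheel ZT4 replicate 4 accounts for 5 of the 11. It had 11675 CPM of Gapdh, against 9793 to 9976 CPM in the other night wheel ZT4 libraries. Its Pkm level was 4087 CPM, against 3765 to 3810 CPM, and its Ldha level 2948 CPM, against 2826 to 2831 CPM. Phka1 had 1108 CPM there, against 1037 to 1041 CPM, and Gaa 331 CPM, against 288 to 295 CPM. The 35 genes summed to 67855 CPM in that library, against 60913 to 61568 CPM in the other 3. Not every gene was high there: Eno1 had 87.8 CPM, against 89.6 to 92.0 CPM, and Pygb 7.48 CPM, against 7.89 to 8.77 CPM. Phkg1 had 536 CPM, against 539 to 582 CPM. Night wheel ZT4 replicate 4 was also the gastrocnemius library with the most counts, 70033331.

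Phkg2 had 7.67 CPM in night wheel ZT4 replicate 2, against 8.26 to 8.38 CPM in its group. Night wheel ZT16 replicate 2 was low in Slc16a3 (257 CPM, against 295 to 301 CPM) and in Phkg1 (513 CPM, against 567 to 575 CPM). Tpi1 had 2112 CPM in day wheel ZT4 replicate 3, against 2215 to 2234 CPM, and Fbp2 39.7 CPM in the same library, against 37.5 to 37.8 CPM. Fbp2 also stood high in day wheel ZT16 replicate 1, with 48.1 CPM, against 40.05 to 41.3 CPM.

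The effect of time (ZT16 against ZT4) differed between the day and night schedules in an interaction test for Pgam1 (-0.75 on the log2 scale, day minus night), Slc16a3 (0.54) and Ugp2 (-0.31).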

How the results depend on the processing

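Of 54 calls of single genes, 17 were kept under every alternative run and 37 were lost under at least 1, and none changed direction. The counts of genes called, of 35, moved as follows. With only the groups compared in the fit, 1 passed at +0h ZT0, 0 at +0h ZT12, 1 between sedentary ZT12 and ZT0, 2 between sedentary ZT16 and ZT4 and 5 between day and night wheels at ZT4; fewer libraries then estimate the spread. DESeq2 called 7 among the sedentary times, 10 between sedentary ZT12 and ZT0, 2 between sedentary ZT16 and ZT4, 4 between day and night wheels at ZT4, 1 at ZT16 and 1 for the +3h session difference. The cause was not tested. Counts over all genes in the alternative fits are not given here, so a larger count there is not a result about the 35 genes. With sedentary ZT16 as the control, 6 passed at +0h ZT12. Without treadmill +0h ZT0 replicate 3 and sedentary ZT12 replicate 1, chosen after seeing the data, 3 passed at +0h ZT0, 1 at +0h ZT12 and 1 among the sedentary times. Leaving out 1 library at a time gave 1 to 11 at +0h ZT0, 1 to 3 at +0h ZT12, 2 to 4 at +3h ZT0, 7 to 11 at +3h ZT12, 0 to 4 and 0 to 1 for the session differences at +0h and +3h, 1 to 4 among the sedentary times, 1 to 5 between sedentary ZT12 and ZT0, 0 to 1 between sedentary ZT16 and ZT4, 2 to 3 between day and night wheels at ZT4, 4 to 7 and 5 to 8 for the night and day time effects and 1 to 5 for their difference.

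Same-numbered libraries did not deviate together: in none of 10 comparisons was every correlation over 0.1 (range -0.457 to 0.406). With the replicate block 4 genes passed between day and night wheels at ZT4, against 2 without it; no other count moved by over 1.5 times, though Eno1 at +0h ZT0 (1.07), Ppp1r3c between night wheel ZT16 and ZT4 (0.57) and Gys1 between day wheel ZT16 and ZT4 (0.17) did not pass with it. What depth limits was not tested.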
